A study of Mus musculus with 6 samples.

Results

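Cytosolic ribosomal proteins are the proteins that, with the ribosomal RNAs, make up the large and small subunits of the ribosome in the cytoplasm. Their genes were chosen from the names on the array: Rpl or Rps with a number and at most a letter or an l-suffix, the stalk proteins Rplp0, Rplp1 and Rplp2, and Rpsa, without the S6 kinases. The rule found 83 genes with 175 probes, of 31709 genes or names with 39429 probes in all. They were 43 proteins of the large subunit, 30 of the small subunit, the 3 stalk proteins and 7 paralogs with an l-suffix (Rpl3l, Rpl7l1, Rpl10l, Rpl22l1, Rpl26l1, Rpl39l and Rps27l). All 83 genes, through 174 of the 175 probes, and 26153 genes in total passed the filter on dim probes. Rpl4, the large-subunit protein taken as the marker, was well above background on all 6 arrays.

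The mice were male, C57BL/6 and 8 weeks of age, and RNA was taken from their retinas. The right eye had received titanium dioxide nanoparticles in its vitreous, the gel behind the lens, 7 days earlier, at a dose named PTC or at 10 times as much (10PTC), and controls had received phosphate-buffered saline (PBS). There were 12 mice in a group, and tubes of 4 retinas gave 3 pools for each dose. A pool was hybridised in Cy5 against PBS RNA in Cy3 on each of 6 arrays, with no dye swap; whether the PBS RNA was 1 pool is not stated in the labels. A value is therefore log2 of treated over PBS. It holds any difference between the dyes, and its p-value measures the spread among pools and leaves out that among PBS animals. In RNA of a whole tissue, fewer cells of a type and less RNA per cell cannot be told apart.

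Mammalian cells make the ribosomal proteins in equal numbers for assembly with ribosomal RNA in the nucleolus. Most of their mRNAs begin with a cytosine and a run of pyrimidines, the 5′ terminal oligopyrimidine (TOP) motif, through which mTOR complex 1 adjusts their translation, often with little change in mRNA level. The mRNAs are among the most abundant of most cells, the retina included.

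Under loess normalization, 26 ribosomal protein genes rose at PTC and 1 fell, against backgrounds of 16.8% and 16.2% of all genes (33.1% in either direction; limma, adjusted p below 0.05). At 10PTC, 10 rose and 8 fell, against 14.4% and 13.3% of all genes (27.7% in either direction). The increases were led at both doses by Rpl5, Rpl7, Rpl4 and Rpl23 of the large subunit, at 0.34 to 0.61 on the log2 scale. The decrease at both doses was that of Rpl3l, the paralog of Rpl3 made in skeletal and heart muscle. The median difference over the 83 genes was 0.098 at PTC, with 61 above 0, and 0.009 at 10PTC, with 44 above 0. Over all genes it was -0.001 and 0. Both counts depended on the normalization. With the arrays only centred on their medians, 67 of the 83 genes rose and 2 fell at either dose, and the medians were 0.365 and 0.352. The shares of all genes were then 31.4% higher and 16.2% lower at PTC, and 36.9% and 19.2% at 10PTC.

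The ribosomal protein genes gave some of the brightest signals on the array, with a median Cy3 signal of 33033.8 to 36011.8 per array against 152.7 to 221.4 over all probes. Of the 83 genes, 77 lay in the brightest decile of the 26153 genes. Without loess, the ratio of all genes climbed with the signal, from a median of -0.177 at PTC in the dimmest decile to 0.214 in the brightest, and from -0.273 to 0.277 at 10PTC. With loess, the medians of the brightest decile were -0.006 and -0.007. A loess curve fitted without the spots of these genes gave 29 increases and 1 decrease at PTC, and 10 and 7 at 10PTC. This alternative was chosen after seeing the data. Whether the climb of the ratio with signal was a dye effect or a change in RNA was not tested.

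**Figure D1:**
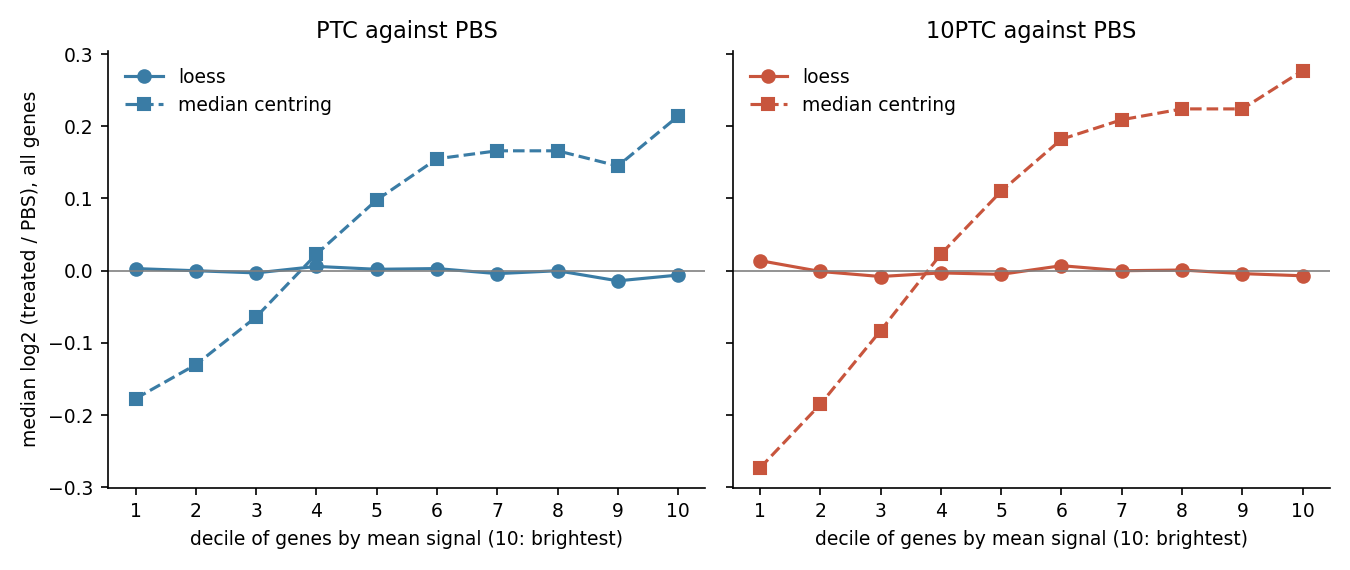
Median log2 of treated over PBS of all genes tested, by decile of mean signal (decile 10 is the brightest and holds 77 of the 83 ribosomal protein genes), at PTC (left) and 10PTC (right). Solid lines are loess and dashed lines median centring, under which the medians of decile 10 were 0.214 and 0.277.

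The increase at PTC was not equal on the 3 arrays. The median over the 83 genes was 0.164 for PTC replicate 1, -0.020 for replicate 2 and 0.155 for replicate 3, while the 10PTC arrays gave -0.025, 0.025 and 0.002. Replicate 2 was the low array at PTC, and its median lay within the range of the 10PTC arrays. Without PTC replicate 1, 15 genes rose at PTC, without replicate 3, 12, and without replicate 2, 37. The shares of all genes called higher were 12.3%, 9.69% and 14.7% in the same order. At 10PTC, 5 rose and 1 fell without 10PTC replicate 1, 7 and 2 without replicate 2, 4 and 1 without replicate 3, and 11 and 13 without PTC replicate 2, whose spread enters the shared estimate. Calls over all genes also fell, from 14.4% higher and 13.3% lower at 10PTC to 2.94% and 2.23% without 10PTC replicate 1. They were 10.3% and 9.12% without 10PTC replicate 2, and 3.32% and 2.68% without 10PTC replicate 3. Leaving out PTC replicate 2 gave 16% and 14.3% of all genes at 10PTC. Median differences of microglia genes (0.672 on replicate 2, 1.82 and 1.34 on replicates 1 and 3) and of reactive glia genes (1.28 against 2.77 and 1.65) were also lowest on replicate 2, and their part in the ribosomal values was not tested. PTC replicates 1 and 2 were on the first slide and the other arrays on the second. Within the first slide 0 genes rose and Rpl3l fell, with 0.604% and 0.478% of all genes called higher and lower. The second slide held 1 PTC array, replicate 3 (median 0.155), and so shows no spread among PTC pools. With the slide as a block, 21 genes rose at PTC and none at 10PTC, and Rpl3l was the gene that fell at each dose. Over all genes that fit called 11.2% higher and 11.3% lower at PTC, and 2.29% and 1.56% at 10PTC. All 10PTC arrays were on the second slide, so the slide effect in that fit came from the PTC arrays alone. It was carried into the 10PTC values and their errors, so the 10PTC counts of that fit cannot tell slide from dose.

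**Figure D2:**
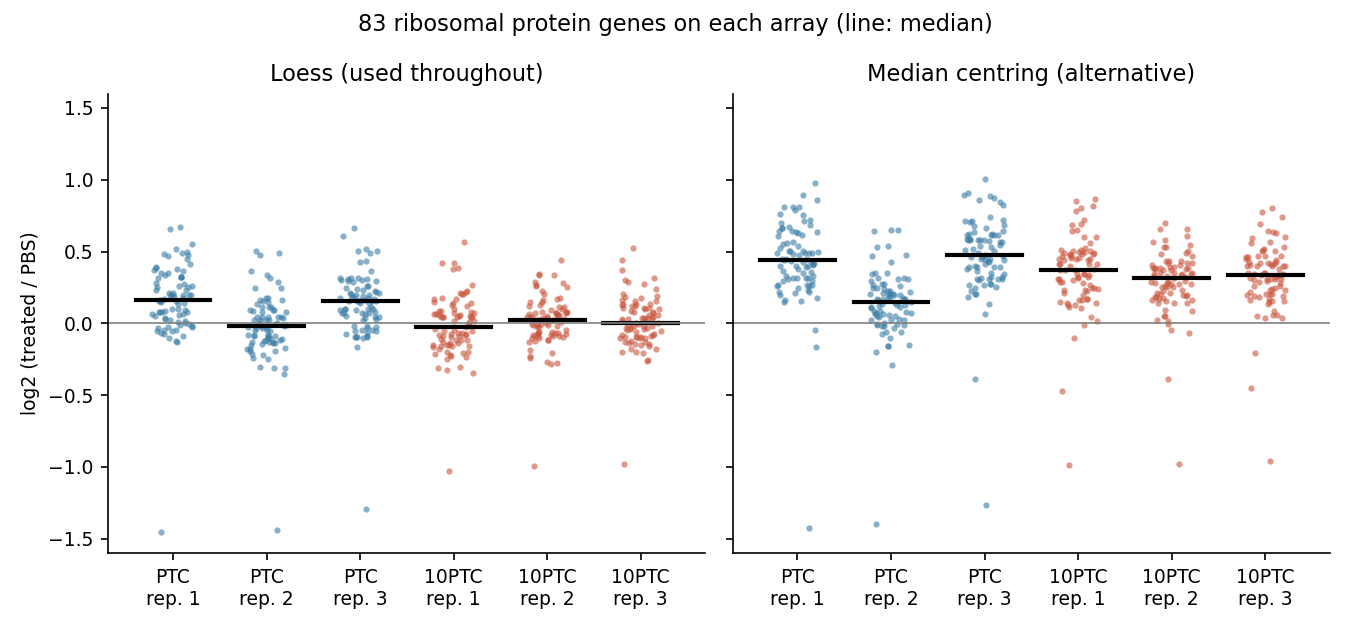
Log2 of treated over PBS of the 83 genes on each array (points, blue for PTC and red for 10PTC) with their median (line), after loess (left) and median centring (right). After loess the medians ran from -0.025 to 0.164; after median centring, from 0.15 to 0.475. The lowest point on each array is Rpl3l.

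Among the 43 genes of the large subunit, 14 rose and 0 fell at PTC (median 0.111), and 6 rose and 4 fell at 10PTC (median 0.021). The shares of all genes were 16.8% higher and 16.2% lower at PTC, and 14.4% and 13.3% at 10PTC. Rpl5, which carries 5S ribosomal RNA into the large subunit and binds Mdm2, had log2 values of 0.67, 0.51 and 0.67 on the PTC arrays and 0.57, 0.29 and 0.53 on the 10PTC arrays. All 6 arrays were above 0 and the doses overlapped. Its mean was 0.61 ± 0.10 at PTC (SD, n = 3; 1.53-fold, adjusted p = 0.00137) and 0.46 ± 0.15 at 10PTC (1.38-fold, adjusted p = 0.00436). Rpl11, its partner in the 5S particle, stood at 0.091 ± 0.12 and 0.009 ± 0.032 and passed the test at neither dose (adjusted p = 0.221 and 0.918). Those values are of the brightest of 3 probes. Tested singly, 1 other probe of Rpl11 rose at PTC (0.17 ± 0.095, limma, adjusted p = 0.0322), and none passed at 10PTC. Rpl5 had 1 probe.

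Rpl7, a protein on the surface of the large subunit, measured 0.66, 0.47 and 0.61 at PTC and 0.42, 0.34 and 0.44 at 10PTC. Every PTC array was above every 10PTC array. The means were 0.58 ± 0.094 (adjusted p = 0.000821) and 0.40 ± 0.051 (adjusted p = 0.00288). Its 3 other probes also rose at PTC, by 0.27 to 0.48.

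Rpl4, which lines the exit tunnel of the nascent chain, had the values 0.50, 0.49 and 0.52 at PTC and 0.42, 0.28 and 0.32 at 10PTC. The PTC arrays lay close together and above all 10PTC arrays. The means were 0.50 ± 0.013 (adjusted p = 0.000853) and 0.34 ± 0.075 (adjusted p = 0.00341). Rpl23, whose protein also binds Mdm2, gave 0.48, 0.36 and 0.50 at PTC and 0.38, 0.34 and 0.37 at 10PTC, all above 0. Its 2 other probes measured 0.18 and 0.006 at PTC, so that the size of its increase (0.45 ± 0.075 by the brightest probe) depended on the probe. With the slide as a block, Rpl4, Rpl5 and Rpl7 kept 10PTC values of 0.33 to 0.42 but missed the threshold (adjusted p = 0.0542 to 0.0709), the highest adjusted p of these genes at 10PTC among the alternatives tried. The slide effect in that fit came from the PTC arrays alone.

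Rpl10, a protein that joins the large subunit late in assembly, rose by 0.25 at each dose (adjusted p = 0.0279 and 0.0319), with 0.39, 0.041 and 0.32 at PTC and 0.21, 0.26 and 0.28 at 10PTC. It passed under 14 of 23 alternatives at PTC (adjusted p up to 0.336) and 13 of 22 at 10PTC (up to 0.267). Rpl24 rose by 0.24 and 0.17, and passed under 20 of 23 and 14 of 22. The other probe of Rpl24 measured -0.002 and -0.072 and did not pass. Rpl3, which helps to build the peptidyl transferase centre, was below 0 on all 6 arrays, at -0.019 to -0.154, and passed at neither dose with loess (adjusted p = 0.328 and 0.114), but was called above 0 at both with median centring (0.20 and 0.23). Rpl13a and Rpl22 also passed at neither dose, with means of 0.037 ± 0.10 and 0.15 ± 0.23 at PTC. At 10PTC the value of Rpl22 was -0.058 ± 0.050 with loess and 0.26 with median centring.

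Rpl39, among the smallest ribosomal proteins and a part of the exit tunnel, had -0.35, -0.27 and -0.26 on the 10PTC arrays, all below 0, and 0.062, -0.31 and -0.045 on the PTC arrays. At 10PTC it fell by 0.29 ± 0.050 (adjusted p = 0.0231), but with median centring its value was 0.021. Its 2 other probes measured -0.11 and -0.12 and did not pass. Rpl36a (-0.27 ± 0.063), Rpl27 (-0.22 ± 0.032) and Rpl36 (-0.19 ± 0.12) were the other large-subunit genes, paralogs aside, that fell at 10PTC with loess. With median centring none of these 3 was called at 10PTC in either direction: Rpl36a was at -0.004, Rpl27 at 0.13 and Rpl36 at 0.18. The decreases of Rpl39, Rpl36a, Rpl27 and Rpl36 passed under 12 to 16 of 22 alternatives. Tested singly, all 3 probes of Rpl36 fell at 10PTC, as did 2 of the 3 of Rpl36a and 1 of the 2 of Rpl27. The remaining probe stood at -0.029 for Rpl36a and -0.034 for Rpl27.

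Among the 30 genes of the small subunit, 10 rose and 0 fell at PTC (median 0.082). At 10PTC 4 rose and 2 fell (median -0.048). Of all genes, 16.8% rose and 16.2% fell at PTC, and 14.4% and 13.3% at 10PTC. Rps14, Rps6 and Rps24 were among the genes that rose at both doses. Rps6, the protein phosphorylated by the S6 kinases, had 0.35, 0.31 and 0.49 at PTC and 0.39, 0.25 and 0.30 at 10PTC. All 6 arrays were above 0 and the doses overlapped. Its means were 0.38 ± 0.092 (adjusted p = 0.00268) and 0.31 ± 0.068 (adjusted p = 0.00651), and its 3 probes lay between 0.34 and 0.38 at PTC. The increases of Rps6 and Rps14 passed under 22 of 23 at PTC and 19 and 18 of 22 at 10PTC. Rps14 rose by 0.43 ± 0.091 and 0.27 ± 0.067, with every PTC array above every 10PTC array.

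Rps27a, made as a fusion with ubiquitin, gave 0.38, 0.15 and 0.50 at PTC and 0.21, 0.15 and 0.24 at 10PTC, and passed at PTC only (0.35 ± 0.18, adjusted p = 0.00877; 0.20 ± 0.045, adjusted p = 0.0657 at 10PTC). Of its probes 1 measured -0.10 at PTC and the others 0.35 and 0.43. The probe at -0.10 was far dimmer, with a mean log2 signal over both dyes of 6.58 against 16.04 and 15.54. Rpsa, also known as the laminin receptor, stood at 0.15 ± 0.090 and -0.073 ± 0.098. Rps19, a protein mutated in Diamond-Blackfan anaemia, stood at 0.098 ± 0.11 and 0.079 ± 0.043, and Rps26 at 0.17 ± 0.15 and 0.037 ± 0.081. Rps3 was at -0.016 ± 0.10 and -0.089 ± 0.035. None of these 4 passed at either dose by the brightest probe. Rps27 passed at neither dose either, at -0.036 ± 0.10 and -0.148 ± 0.072. Tested singly, 1 of the 4 probes of Rpsa fell at both doses (-0.173 and -0.171, limma, adjusted p = 0.0357 and 0.0429). It was the dimmest of them, with a mean log2 signal of 7.17 against 12.54 to 16.36. Of the 3 probes of Rps3, 1 fell at 10PTC (-0.165, adjusted p = 0.0353). With median centring Rps3 and Rps27 were called above 0 at both doses and Rpsa at 10PTC.

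Rps18 and Rps21 were the small-subunit genes that fell at 10PTC with loess. Rps21 had -0.31, -0.20 and -0.26 at 10PTC, and -0.069, -0.30 and -0.025 at PTC. Its mean at 10PTC was -0.26 ± 0.054 (adjusted p = 0.0208), against 0.042 with median centring. Rps18 had -0.25, -0.23 and -0.21 at 10PTC (-0.23 ± 0.020, adjusted p = 0.0293), against 0.073 with median centring. Rps21 passed under 16 of 22 alternatives at 10PTC and Rps18 under 13.

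The stalk proteins recruit the elongation factors to the ribosome. None of the 3 passed at either dose, with Rplp0 at 0.076 ± 0.13 and 0.12 ± 0.063, Rplp1 at -0.097 ± 0.080 and -0.14 ± 0.069, and Rplp2 at -0.083 ± 0.047 and -0.034 ± 0.088. Rplp0 is often used as a reference gene; its arrays ran from -0.053 to 0.21. With median centring Rplp0 (0.36 and 0.48) and Rplp2 were called above 0 at both doses and Rplp1 at 10PTC.

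**Figure D3:**
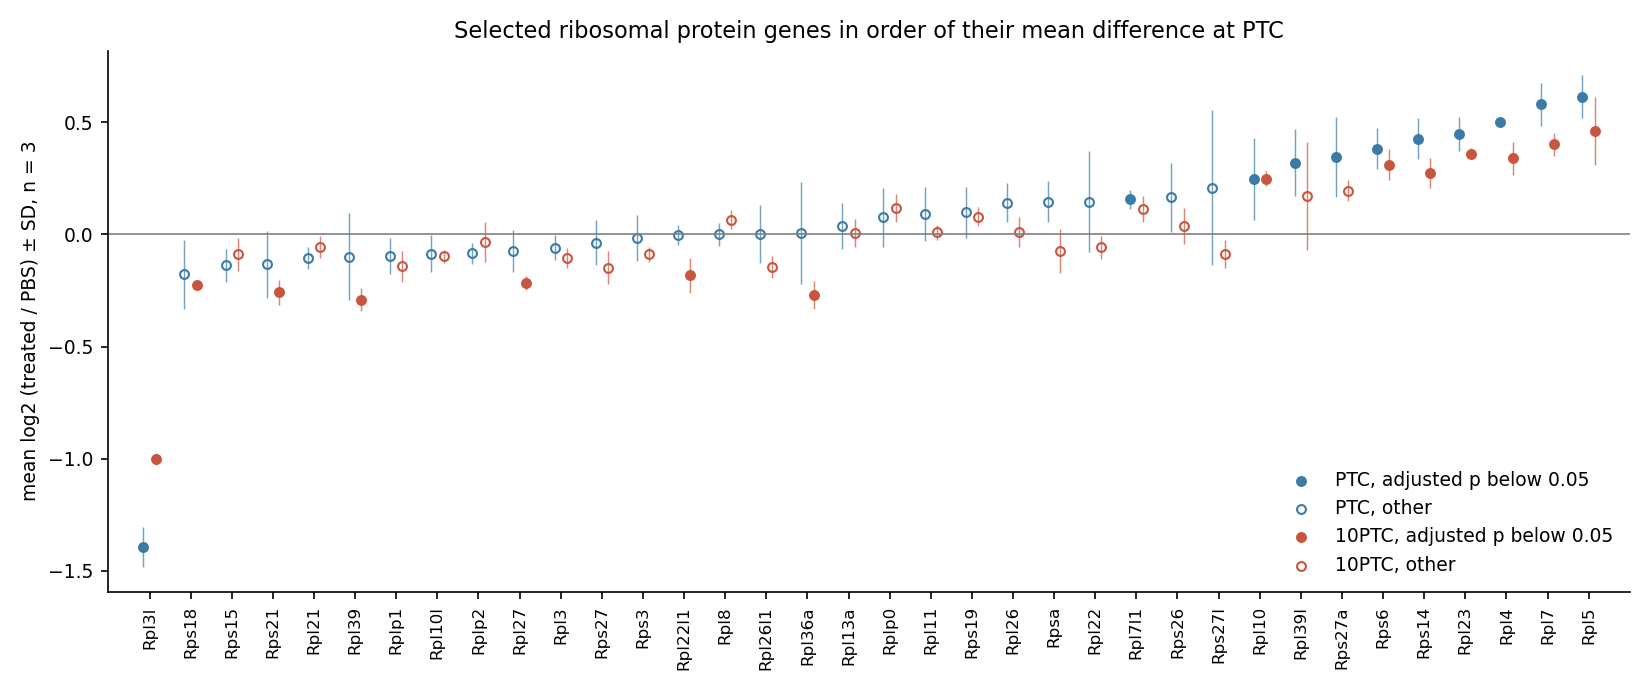
Mean log2 of treated over PBS with its SD (n = 3 pools) of 36 of the genes (Rpl4, a panel, the paralogs with their partners, and the members of largest change or smallest p) in order of the PTC value, for PTC (blue) and 10PTC (red). Filled points passed the limma test at an adjusted p below 0.05: 11 at PTC and 14 at 10PTC. Genes were picked partly for passing, so these counts do not compare the doses. Over all 83 genes, 26 rose and 1 fell at PTC, and 10 rose and 8 fell at 10PTC. The shares of all genes in either direction were 33.1% and 27.7%. Rpl5 stands highest and Rpl3l lowest at both doses.

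Of the 83 genes, 10 rose at both doses, 16 at PTC alone, 1 fell at both, 7 fell at 10PTC alone and 49 passed at neither. The doses share the PBS reference, so these counts are no independent evidence. The test of 10PTC against PTC called none of the 83 genes and 0% of all genes (limma). At an unadjusted p below 0.05 it gave 9 of the 83 and 2133 of the 26153. The difference of 10PTC from PTC had a median of -0.109 over the 83 genes, 72 of them below 0, and of 0.003 over all genes. With median centring the median was -0.040, with 54 below 0. In 13 of the 83 genes every 10PTC array lay below every PTC array, and in 1, Rpl3l, every one lay above; over all genes the shares were 6.58% below and 8.93% above. Without PTC replicate 1 or 3 the median was -0.072, and without replicate 2 it was -0.152.

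The paralogs differ from their partners in where they are made. Rpl3l measured -1.45, -1.44 and -1.29 at PTC and -1.03, -0.995 and -0.98 at 10PTC. All 6 arrays were far below 0, and every PTC array was below every 10PTC array. Its means were -1.40 ± 0.089 (0.380-fold, adjusted p = 3.99e-05) and -1.002 ± 0.025 (0.499-fold, adjusted p = 1.65e-04). It passed under every alternative tried for each dose, at -1.29 to -2.51 for PTC and -0.97 to -1.47 for 10PTC. Its difference between the doses was 0.39 and did not pass (limma, adjusted p = 0.479).

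Skeletal muscle genes moved with it: of 15 listed, 14 fell at each dose, with medians of -2.83 and -2.08. The median of the list per array ran from -3.26 to -2.25 at PTC and from -2.29 to -1.95 at 10PTC. Ckm, the creatine kinase of muscle, measured -2.14 ± 0.15 and -1.80 ± 0.12, and Acta1, skeletal actin, -2.36 ± 0.18 and -2.08 ± 0.18. Of 9 fat genes, 7 fell at each dose. The part of muscle RNA in the value of Rpl3l was not tested. Of the defining genes of the labelled tissue, all 14 rod photoreceptor markers passed the filter on dim probes.

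**Figure D4:**
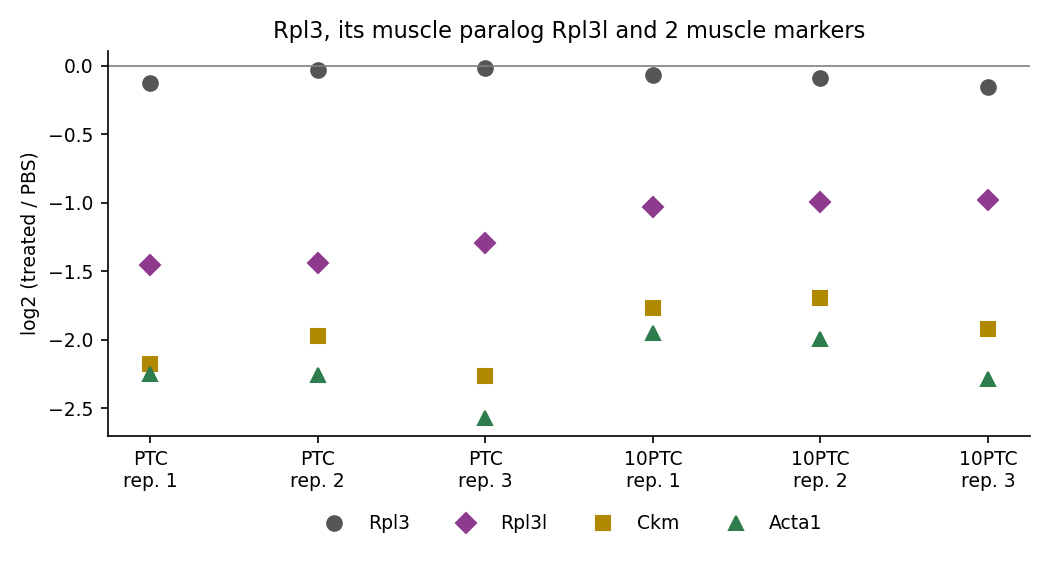
Log2 of treated over PBS on each array of Rpl3 (circles), its muscle paralog Rpl3l (diamonds) and the muscle genes Ckm (squares) and Acta1 (triangles). Rpl3 stayed between -0.154 and -0.019, while Rpl3l lay between -1.45 and -0.98 and both muscle genes lay lower still.

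The probes of Rpl3 and Rpl3l are shown because the values of these paralogs lie far apart; how well either probe binds RNA of the other paralog was not tested. In the ungapped alignment of highest score they overlap in 27 bases and share 20 of them (74.1%), in capitals here. Rpl3 lies at chr15:79908489-79908772 (minus strand) and Rpl3l at chr17:24872413-24872681 (plus strand) in mm9, the build of the array design, and each probe is 60 bases.
Rpl3: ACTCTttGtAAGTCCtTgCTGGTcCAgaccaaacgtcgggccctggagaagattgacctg
Rpl3l: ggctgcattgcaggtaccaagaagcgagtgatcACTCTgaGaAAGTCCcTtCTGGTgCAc

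Of the other paralogs, Rpl39l, known from testis, rose at PTC (0.32 ± 0.15, adjusted p = 0.0345) with 0.49, 0.24 and 0.23, and spanned -0.022 to 0.44 at 10PTC, where it did not pass. Rpl7l1, a factor of large-subunit assembly, rose at PTC by 0.16 ± 0.042 (adjusted p = 0.0296) and stood at 0.11 ± 0.059 at 10PTC. Rpl39l and Rpl7l1 each passed under 14 of 23 alternatives at PTC. Rpl22l1, which can replace Rpl22, was at -0.002 ± 0.044 at PTC and fell at 10PTC by 0.18 ± 0.080 (adjusted p = 0.0262; 14 of 22 alternatives), against 0.094 with median centring. Rps27l, a target of p53, spread widely at PTC (0.55, -0.14 and 0.22) and passed at neither dose. Rpl26l1, whose probe carries the accession of a gene RefSeq now names Rpl26-ps4, was at 0.002 ± 0.13 and -0.146 ± 0.048 beside 0.14 ± 0.087 and 0.010 ± 0.066 for Rpl26. Rpl10l, a testis gene, was well above background on 4 arrays in Cy3 and 2 in Cy5 and did not pass at either dose.

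The probes of a gene often gave different values. Of 54 genes with several probes, 24 had probes of both signs at PTC and 27 at 10PTC, and the range between probes of a gene had a median of 0.15 and 0.14. In none were probes called in opposite directions at a dose. Tested as single probes, 52 of 174 rose and 6 fell at PTC, against 17.1% and 15.9% of all probes. At 10PTC 17 rose and 17 fell, against 14.7% and 12.9%. With the mean over the probes of a gene, 22 rose and 1 fell at PTC, and 6 rose and 5 fell at 10PTC. The shares of all genes were then 16.6% and 15.6% at PTC, and 13.9% and 12.6% at 10PTC. Rps27a had the widest range at PTC, 0.535, and Rpl23 and Rps18 followed. The range of Rps27a rested on a dim probe (mean log2 signal 6.58 against 16.04 and 15.54). This family has many processed pseudogenes, and sequence that probes share with them was not examined, so the gene behind a probe is uncertain.

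**Figure D5:**
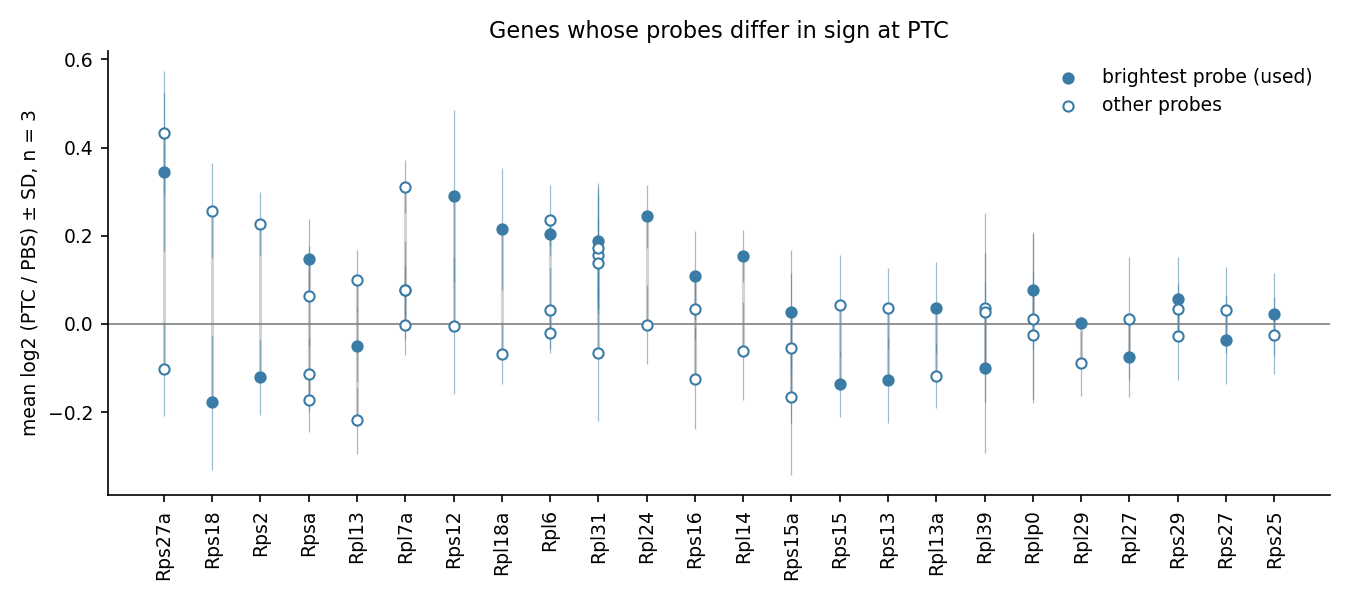
Mean log2 of PTC over PBS with its SD (n = 3 pools) for each probe of the 24 genes whose probes differ in sign at PTC, in order of the range between probes. Filled points are the brightest probe, used for the gene, and open points the others. In Rps27a the probes span -0.10 to 0.43, and the lowest is a dim probe (mean log2 signal 6.58).

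The 2 probes of Rps18 are shown because they gave opposite signs. The brightest lies at chr17:34089041-34089202 and the other at chr17:34092060-34092119, both on the minus strand of mm9. The brightest measured -0.18 ± 0.15 at PTC and -0.23 ± 0.020 at 10PTC, and the other 0.26 ± 0.11 and 0.16 ± 0.044. The other probe passed at PTC when probes were tested singly (adjusted p = 0.00946).
Rps18, brightest probe: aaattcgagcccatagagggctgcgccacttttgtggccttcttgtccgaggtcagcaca
Rps18, other probe: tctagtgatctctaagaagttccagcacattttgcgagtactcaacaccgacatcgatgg

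Probe base composition went with the value at PTC. Among the 28 genes with the lowest GC content of the probe (30.0% to 41.7%), 16 rose at PTC and the median was 0.206. Among the 28 with the highest (45.0% to 55.0%), 5 rose and the median was 0.040. The share of all genes that rose at PTC was 16.8%. Across the 83 genes, Pearson's r between GC content and the PTC value was -0.39 (Spearman -0.39), and -0.28 at 10PTC. Across all 26153 genes it was -0.17 and -0.16, and across the 2616 genes of the brightest decile it was -0.21 and -0.17. Genes are not independent replicates, all values come from the same arrays, and the part of labelling, which used dye-coupled dCTP, was not tested. The probes of Rpl4 and Rpl7 had 35.0% GC, as did those of Rpl39 and Rpl27, which passed in neither direction at PTC.

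The start of the transcript was compared with the TOP motif in the RefSeq windows of GRCm38.p6, which reach 250 bases before and 50 after the annotated start. Of the 83 genes, 62 matched. A C at the start followed by pyrimidines, at least 5 bases in all, was found in 13 of them (21.0%), against 3.0% of 27025 genes. The 13 are what the annotated start allows; where it is off by a few bases the run is missed. The stretches below, 15 bases on each side of the start with the run in capitals, show the motif in genes that rose (Rps6, Rpl35), fell at 10PTC (Rps18, Rps21) or passed at neither dose (Rpl15, Rps27). They lie at chr4:86857353-86857382, chr2:39005117-39005146, chr17:33955651-33955680, chr2:180257364-180257393, chr14:18270972-18271001 and chr3:90213634-90213663 in the same order, on the minus strand except Rps21.
Rps6: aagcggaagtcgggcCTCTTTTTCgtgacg
Rpl35: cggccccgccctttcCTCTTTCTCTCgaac
Rps18: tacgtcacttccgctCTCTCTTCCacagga
Rps21: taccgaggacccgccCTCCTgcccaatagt
Rpl15: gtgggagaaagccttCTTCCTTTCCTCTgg
Rps27: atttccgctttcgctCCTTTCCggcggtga

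Genes with this start had a median of 0.115 at PTC, with 4 of 13 rising, and the other 49 matched genes 0.098, with 14 rising. At 10PTC the medians were 0.058 and 0.001, with 1 of 13 and 6 of 49 rising. For comparison, 16.8% of all genes rose at PTC and 14.4% at 10PTC. The motif CCGGAAG, on either strand of the 300 bases, was in 26 of the 62 (41.9%) and 9.9% of all genes, and CTTTCC, which pyrimidine runs can overlap, in 53.2% and 29.3%. AAGATGG was in 16.1% and 7.3%, and TATAAA in 11.3% and 15.7%. With CCGGAAG the median at PTC was 0.144 and without it 0.078, with 7 of 26 and 11 of 36 rising. At 10PTC the medians were 0.016 and -0.012, with 1 of 26 and 6 of 36 rising. A match in these windows is a description, not a binding site.

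Other genes of translation were read from lists. For comparison, 16.8% of all genes were called higher and 16.2% lower at PTC, and 14.4% and 13.3% at 10PTC. Of 15 further TOP mRNAs, 8 rose and 1 fell at PTC (median 0.164), and 6 rose and 1 fell at 10PTC (median 0.141). Eef1a1, the elongation factor that brings aminoacyl-tRNA, rose by 0.38 ± 0.070 and 0.38 ± 0.027, and Npm1, a nucleolar chaperone of ribosome assembly, by 0.48 ± 0.060 and 0.25 ± 0.12. Eef2, the translocase, fell by 0.35 ± 0.044 and 0.30 ± 0.095. Rack1, a small-subunit protein outside the naming rule, rose by 0.35 ± 0.040 and 0.30 ± 0.061, and Fau, which encodes Rps30, fell at PTC by 0.16 ± 0.044.

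Of 57 ribosome assembly and rRNA processing factors, 20 rose and 5 fell at PTC, and 19 rose and 2 fell at 10PTC. Their medians were 0.080 and 0.096. The shares of all genes, for these and the next lists, were 16.8% higher and 16.2% lower at PTC. At 10PTC they were 14.4% and 13.3%. Gnl2, a GTPase of large-subunit assembly, rose by 0.45 ± 0.049 and 0.41 ± 0.088, and Pes1 by 0.52 ± 0.073 and 0.47 ± 0.15. Of 31 initiation factors, 9 rose and 5 fell at PTC and 8 rose and 2 fell at 10PTC; Eif3a rose by 0.58 ± 0.089 and 0.50 ± 0.099 and the scaffold Eif4g1 fell by 0.45 ± 0.079 and 0.34 ± 0.15. Of 15 genes of RNA polymerase I, which transcribes ribosomal RNA, 3 rose and 2 fell at PTC and 4 rose and 1 fell at 10PTC, with the factor Ubtf at 0.95 ± 0.23 and 0.90 ± 0.10.

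Of 18 genes of mTOR complex 1 and its pathway, 2 rose and 3 fell at PTC and 3 rose and none fell at 10PTC; Tsc2, which restrains the complex, rose by 0.95 ± 0.083 and 0.87 ± 0.090, and Rheb, which activates it, by 0.34 ± 0.078 and 0.27 ± 0.081. The 78 mitochondrial ribosomal proteins, which build the ribosome of another compartment, had 10 increases and 16 decreases at PTC and 9 and 18 at 10PTC. Their medians were -0.018 and 0.003. Beside both lists, 16.8% of all genes rose and 16.2% fell at PTC, and 14.4% and 13.3% at 10PTC.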

How the data were processed

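The members and gene lists were chosen with earlier results of these data known. The authors deposited, per the file headers, spot intensity values (mean, background and processed signals) and a log10 ratio for each array, made with Agilent Feature Extraction 10.7.3.1 (9.3.2.1 in the submitters' processing notes). A table of log2 ratio values, also deposited by the authors, followed the log10 ratios with r of 0.983 to 1.00 as Cy5 over Cy3, with column medians of -0.075 to 0.039; which centring was applied is unknown. The build and annotation behind the probe names are those of the array design (mm9), per the file headers.

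Normexp background correction (offset 50) of the mean signals was followed by loess within each array in limma 3.58.1 (R 4.3.3), with 1377 control spots at weight 0 and 185 to 274 outlier spots per array left out. A probe was kept if Cy3 or Cy5 stood well above background on 3 or more of the 6 arrays; 6918 failed. The probe of highest mean intensity stood for a gene. RefSeq symbols were assigned to 26055 of 39429 probes through accessions, to 3195 through symbols and to 930 through synonyms; 9249 kept the array's name. A limma model with a coefficient per dose (4 residual and 3.4 prior degrees of freedom) was fitted over 26153 genes, with Benjamini-Hochberg adjustment and a threshold of 0.05. The steps were tested on simulated data. The number of arrays limits the precision. Genes named in the text were Rpl4, a panel, all paralogs and their partners, per comparison the called members of largest change (or smallest p), members whose probes differed in sign, and up to 4 called genes of smallest p per list. Alternatives covered background correction, normalization, filters, probe choice, blocks, slides, left-out arrays and moderation. Rpl15, Rpl24, Rpl35, Rpl36 and Rps24 were named after their values were seen. Some results for members are not reported here.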

Additional observations from a re-analysis of the deposited data

How the results depend on the processing

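Median centring moved the counts of higher genes furthest from those of loess: 67 genes rose and 2 fell at PTC (median 0.365) and 67 rose and 2 fell at 10PTC (median 0.352), while over all genes 8208 rose and 4236 fell at PTC and 9651 and 5010 at 10PTC, and the median of all genes shifted to 0.048 and 0.076. Under it, uncalled values below 0 were called above 0 for Rpl22l1 (0.208), Rpl3 (0.198), Rpl36 (0.204), Rpl8 (0.297), Rplp2 (0.221), Rps27 (0.265) and Rps3 (0.23) at PTC, and for Rpl22 (0.263), Rpl3 (0.228), Rplp1 (0.216), Rplp2 (0.349), Rps15 (0.252), Rps27 (0.225), Rps3 (0.23) and Rpsa (0.308) at 10PTC. Called decreases at 10PTC turned to 0.094 (Rpl22l1), 0.126 (Rpl27), 0.181 (Rpl36), 0.021 (Rpl39), 0.073 (Rps18) and 0.042 (Rps21), and that of Rpl36a shrank to -0.004. The processed signals gave 15 higher and 2 lower at PTC (median 0.028), and 5 higher and 6 lower at 10PTC with a median of -0.034. The authors' table gave 19 higher and 2 lower at PTC (median 0.048), and 5 higher and 3 lower at 10PTC with a median of -0.018. Over all genes it gave 2555 higher and 2029 lower at 10PTC. Lower genes at PTC numbered 2 when Cy3 and Cy5 both had to exceed background on every array, 3 with trended and robust moderation, and 2 with 4 genes of other names added. Single probes gave 52 higher and 6 lower at PTC and 17 and 17 at 10PTC. Probe means gave 6 and 5 at 10PTC. PTC fitted alone gave 13 higher. Within the first slide none rose at PTC, where 1 residual degree of freedom was left, and within the second 9 rose. With the slide as a block, its effect taken from the PTC arrays alone, 0 rose and 1 fell at 10PTC (median -0.026). Over all genes 2.29% rose and 1.56% fell at 10PTC in that fit. Leaving out each array gave 12 to 37 higher at PTC (median 0.059 to 0.161), 4 to 11 higher and 1 to 13 lower at 10PTC (median -0.005 to 0.011), and no call between the doses (median -0.152 to -0.072). Without 10PTC replicate 1, 2 or 3, the lower genes at 10PTC numbered 1, 2 and 1, beside 2.23%, 9.12% and 2.68% of all genes. The fits that gave 12 and 37 higher at PTC called 9.69% and 14.7% of all genes higher. The cause of these changes was not tested.

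Replicate numbers did not pair the samples: deviations of same-numbered arrays correlated at -0.272, 0.146 and 0.198. With the replicate block 19 rose and 1 fell at PTC, and 8 rose and 2 fell at 10PTC; no gene was called between the doses. The direction of the median at 10PTC also differed among the settings above. No alternative tried, the added loess included, called a ribosomal protein gene between the doses.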
